A study of Mus musculus with 6 samples.

Results

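Fatty acid elongases and desaturases are described here in mouse liver through the RNA of 10 genes, the elongases Elovl1, Elovl2, Elovl3, Elovl5 and Elovl6 and the desaturases Fads1, Fads2, Fads3, Fads6 and Scd2. They were taken by gene symbol from a table of 40803 genes, and all 10 were among the 16327 genes with enough counts to be tested. Scd1 is not a member and is given as a neighbour of the family. The libraries came from livers of male C57BL/6J mice (C57BL6 in the sample titles), about 6 weeks old at injection and sampled 4 weeks later under normal feeding. One group of 3 mice received rAAV8-Scramble and the other group of 3 mice rAAV8-Hnf1aos1, with 1 library per mouse. Both are recombinant adeno-associated viruses of a liver-seeking serotype that carry an EGFP reporter and a short hairpin RNA under the U6 promoter, which is active in any cell type, so the controls also carry the virus, a hairpin and EGFP. The hairpin of the second group is directed at the lncRNA Hnf1aos1, and that group is called the knockdown below.

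Fatty acids that leave the cytosolic synthase as palmitate, or that arrive from the diet, are lengthened in the endoplasmic reticulum by a cycle whose first and rate-setting condensation is carried out by an ELOVL enzyme with malonyl-CoA as donor. Desaturases of the same membrane insert double bonds with electrons passed on by cytochrome b5. In liver the combined actions set the balance of palmitate, stearate and oleate, build arachidonic and docosahexaenoic acid from the essential fatty acids of the diet, and supply very long chains for sphingolipids, and several of the genes are known targets of the insulin- and sterol-responsive factor SREBP-1c.

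Elovl5, Elovl6 and Fads3 were lower in the knockdown and passed the test, at 56.0%, 74.3% and 74.3% of the scramble mean. Elovl3, Fads1, Fads2 and Scd2 had means of 62.4%, 74.5%, 78.9% and 71.5% of scramble and did not pass the test, and Elovl2 (92.5%), Fads6 (96.2%) and Elovl1 (116%) were nearer to the scramble level. The test throughout is the quasi-likelihood test of edgeR, with p-values adjusted by the Benjamini-Hochberg method over all 16327 genes, and genes with an adjusted p under 0.05 are referred to as called. Of the 10 members 3 were called, all lower, where 6.32% of all genes tested were called in either direction and 3.23% were called lower. These calls depended on single libraries. With 1 library left out, 0 members were called without scramble replicate 2 or 3 or knockdown replicate 2. Calls over all genes also fell in those fits, from 1032 to 391, 103 and 323 in that order. In 6 members, Elovl3, Elovl5, Elovl6, Fads1, Fads3 and Scd2, the highest knockdown library was still under the lowest scramble library, against 13.7% of all genes for this direction and 28.9% for either. The median log2 fold change (knockdown over scramble) was -0.43 over the 10 members and -0.0004 over all genes, and 9 of the 10 values were below 0, or 7 of 10 when the libraries were scaled by spike-in RNA, which turned Elovl2 and Fads6 to values above 0.

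**Figure D1:**
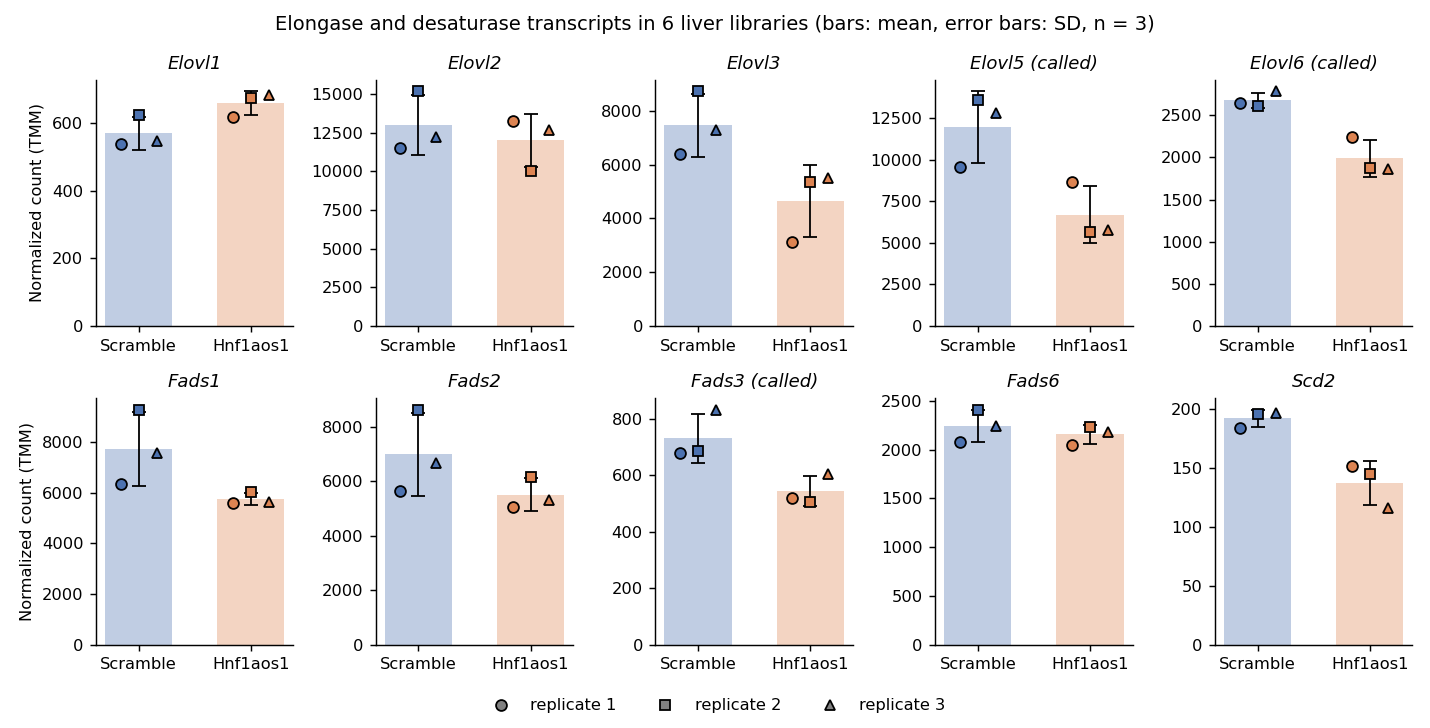
Normalized counts (y axis, linear from 0, separate for each gene) of the 10 members in the rAAV8-Scramble libraries (blue) and the rAAV8-Hnf1aos1 libraries (orange). Bars are means, error bars SD (n = 3), and symbols mark replicates 1 to 3. The groups do not overlap for Elovl3, Elovl5, Elovl6, Fads1, Fads3 and Scd2.

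The libraries held 14704746 to 16532510 counts on genes in the scramble group and 18021614 to 19462398 in the knockdown group, and the replicates are separate mice. Normalized counts are counts divided by the TMM-scaled library size relative to its mean. Spike-in RNA (ERCC) took 1.38% to 1.52% of counts in the scramble group and 1.19% to 1.25% in the knockdown group, and scaling by it raised the median over all genes by 0.20 on the log2 scale. For the targeted Hnf1aos1 the scramble libraries held 512, 491 and 620.3 normalized counts and the knockdown libraries 278, 258 and 433, giving a log2 fold change of -0.74 with an adjusted p of 0.0625 (edgeR). It was called by DESeq2 (adjusted p = 0.00321), by limma voom (0.0418), without a filter on low counts (0.00564) and without knockdown replicate 3 (0.000261, log2 fold change -1.01), and since the gene is annotated as antisense its level is uncertain if strand was not used in counting. All 11 matched hepatocyte markers were present in every library, at sums of 95901 to 101857 TPM (a level per transcript length) in scramble and 99750 to 108940 in the knockdown, and 3 of them, the acute-phase genes Fga, Fgb and Hpx, were called higher, a call that each lost without scramble replicate 3 (adjusted p up to 0.171 over the fits with 1 library left out), and Fga and Hpx also by limma on log2 TPM and Hpx with library totals and without a filter on low counts (up to 0.125).

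Sequence upstream of the start site is shown for the 3 called members and for Elovl2, an elongase that was not called, to set called members beside a member with overlapping groups. Windows of 250 bases came from RefSeq on GRCm38.p6 for 7 of the 10 members, and the bases that GENCODE places inside the gene were taken off the end. Capitals mark any match, on either strand, to the sterol regulatory element TCACNCCAC, the E-box CACGTG, the CCAAT box or the GC box GGGCGG. All are written 5′ to 3′ on the strand of the gene.
Elovl5 (chr9:77917115-77917363, plus strand): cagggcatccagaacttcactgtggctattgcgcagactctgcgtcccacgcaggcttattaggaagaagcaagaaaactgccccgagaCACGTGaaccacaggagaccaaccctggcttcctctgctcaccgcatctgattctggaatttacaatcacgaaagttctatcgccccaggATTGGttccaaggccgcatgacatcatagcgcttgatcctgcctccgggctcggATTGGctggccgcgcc
Elovl6 (chr3:129532136-129532354, plus strand): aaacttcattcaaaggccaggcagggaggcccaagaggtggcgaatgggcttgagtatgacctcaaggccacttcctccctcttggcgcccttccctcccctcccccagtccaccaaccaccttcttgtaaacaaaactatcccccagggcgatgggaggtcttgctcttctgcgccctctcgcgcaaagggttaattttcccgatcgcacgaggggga
Fads3 (chr19:10041298-10041547, plus strand): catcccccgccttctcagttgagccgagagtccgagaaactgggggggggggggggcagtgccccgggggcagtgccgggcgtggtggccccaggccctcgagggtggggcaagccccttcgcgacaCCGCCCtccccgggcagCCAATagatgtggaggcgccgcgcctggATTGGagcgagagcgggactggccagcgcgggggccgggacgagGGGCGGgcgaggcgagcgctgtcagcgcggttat
Elovl2 (chr13:41220406-41220653, minus strand): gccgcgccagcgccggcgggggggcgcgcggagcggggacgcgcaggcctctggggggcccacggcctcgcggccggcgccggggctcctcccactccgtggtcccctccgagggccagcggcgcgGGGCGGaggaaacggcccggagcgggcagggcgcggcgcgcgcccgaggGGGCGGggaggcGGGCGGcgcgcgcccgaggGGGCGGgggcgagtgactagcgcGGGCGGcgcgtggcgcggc

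The Elovl5 window held 1 E-box, 161 to 156 bases before the start, and 2 CCAAT boxes. An E-box was present in 6.02% of the 32851 RefSeq windows of that length and a CCAAT box in 33.8%. The Fads3 window held 2 CCAAT boxes and 2 GC boxes, the latter present in 32.7% of windows. The Elovl6 window held none of the 4 motifs, and the first of the 2 Elovl2 windows, the one shown, held 5 GC boxes and no other. The sterol regulatory element, present in 1.05% of all windows, was found in no window of the 7 members. These are matches of letters in a short stretch and were not tested for binding.

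By position on GRCm38 (GENCODE), 5 of the 10 members lie on chromosome 19. Fads3 (chr19:10041569-10060110, plus strand), Fads2 (chr19:10062765-10101746, minus strand) and Fads1 (chr19:10182888-10196877, plus strand) follow each other, with 2654 bases between Fads3 and Fads2 and 81141 between Fads2 and Fads1. Scd2 (chr19:44293674-44306864) and Elovl3 (chr19:46131897-46135694), both on the plus strand, lie farther along, Scd2 at 87590 bases from Scd1. Elovl5 lies at chr9:77917364-77984519 and Elovl6 at chr3:129532355-129638495. The remaining members are Elovl1 on chromosome 4, Elovl2 on chromosome 13 and Fads6 on chromosome 11. All are annotated as protein-coding, and the largest exonic overlap with another gene on the opposite strand was 53 bases, between Elovl1 and Cdc20.

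Elovl5 lengthens polyunsaturated fatty acids after the first desaturation and shows the largest decrease among the members. Its normalized counts were 9553, 13587 and 12801 in scramble replicates 1, 2 and 3 and 8658, 5675 and 5793 in knockdown replicates 1, 2 and 3. The groups did not overlap, but knockdown replicate 1 lay close under scramble replicate 1, while knockdown replicates 2 and 3 were at 47.4% and 48.4% of the scramble mean. The mean was 11980.1 ± 2138 (SD, n = 3) in scramble and 6709 ± 1689 (SD, n = 3) in the knockdown. The log2 fold change was -0.84 (standard error 0.193, 95% interval -1.28 to -0.40, edgeR adjusted p = 0.0409). The call rested on 4 libraries: without scramble replicate 2 or 3 the adjusted p was 0.128 or 0.184, and without knockdown replicate 2 or 3 it was 0.117 or 0.0649 (edgeR), while without knockdown replicate 1 the log2 fold change was -1.07 with an adjusted p of 0.00355. It was also lost with library totals in place of TMM (0.0524), without a filter on low counts (0.0729) and by limma on log2 TPM (0.0560), with log2 fold changes of -0.91, -0.84 and -0.92.

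Elovl6, which turns palmitate into stearate and palmitoleate into vaccenate, had the lowest adjusted p of the members and the tightest scramble values. The counts were 2641, 2607 and 2783 in scramble replicates 1 to 3, against 2241, 1870.1 and 1858 in the knockdown replicates. All knockdown libraries lay below all scramble libraries, between 69.4% and 83.7% of the scramble mean, and the highest was again knockdown replicate 1. Mean levels were 2677 ± 93.2 and 1989.6 ± 218 (SD, n = 3 each), a log2 fold change of -0.43 (standard error 0.0980, 95% interval -0.64 to -0.21, edgeR adjusted p = 0.0303). With 1 library left out the log2 fold change stayed between -0.53 and -0.38, but the call was kept only without knockdown replicate 1 (adjusted p = 0.0111) or 3 (0.0416); the adjusted p was 0.0704, 0.0690 and 0.144 without scramble replicate 1, 2 and 3, and 0.122 without knockdown replicate 2 (edgeR). Scaling by spike-ins gave a log2 fold change of -0.23 with an adjusted p of 0.137.

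Elovl3 lengthens saturated and monounsaturated chains and is known in liver for a daily rhythm and for higher expression in males. Its counts were 6410.4, 8726 and 7289.6 in scramble and 3109, 5376 and 5500.45 in the knockdown. The groups did not overlap, and knockdown replicate 1, at 41.6% of the scramble mean, stood apart from knockdown replicates 2 and 3 at 71.9% and 73.6%. The log2 fold change of -0.68 (standard error 0.229, 95% interval -1.22 to -0.14) had an adjusted p of 0.129 in edgeR and was not called, whereas DESeq2 called it (adjusted p = 0.00458). Without knockdown replicate 1 the log2 fold change was -0.47 (edgeR adjusted p = 0.0729).

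Elovl2 elongates the longer polyunsaturated intermediates and is needed for docosahexaenoic acid synthesis. The counts were 11519, 15169 and 12249.7 in scramble and 13278, 10047 and 12684 in the knockdown, so that the groups overlapped throughout. The log2 fold change was -0.11 (95% interval -0.41 to 0.19, edgeR adjusted p = 0.664), an interval that includes the estimate for Fads2 as well as 0. Scaling by spike-ins gave 0.084, without scramble replicate 2 it was 0.010 and without knockdown replicate 2 it was 0.0034.

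Elovl1 makes the very long saturated and monounsaturated chains of sphingolipids and was the only member with a fold change above 0. Its counts were 538, 626 and 548 in scramble and 619.9, 674 and 685 in the knockdown, with knockdown replicate 1 below scramble replicate 2. The log2 fold change was 0.21 (95% interval -0.0005 to 0.42, edgeR adjusted p = 0.214). Under spike-in scaling, which lifted all genes, it became 0.41 with an adjusted p of 0.0230.

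Fads2 takes the first step from linoleic and alpha-linolenic acid and Fads1 the later one that yields arachidonic and eicosapentaenoic acid. Fads1 had 6364, 9282 and 7576 counts in scramble replicates 1 to 3, against 5619, 6039 and 5638 in the knockdown replicates. Fads2 had 5649, 8631 and 6696 in scramble and 5046, 6181 and 5330.2 in the knockdown. For both genes scramble replicate 2 was the highest library, and the groups overlapped for Fads2 but not for Fads1. The log2 fold changes were -0.42 for Fads1 (standard error 0.130, 95% interval -0.71 to -0.14, edgeR adjusted p = 0.0756) and -0.34 for Fads2 (standard error 0.150, 95% interval -0.67 to -0.01, edgeR adjusted p = 0.201). DESeq2 called Fads1 (adjusted p = 0.0282) but not Fads2 (0.160). Without scramble replicate 2 the log2 fold changes were -0.28 and -0.17.

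Fads3, the neighbour of Fads2, encodes a desaturase that acts on sphingoid bases. Its counts were 679, 686 and 833 in scramble and 522, 506 and 606 in the knockdown. The groups did not overlap, with scramble replicate 3 as the highest library and knockdown replicate 3 as the highest of its group. The mean was 733 ± 86.6 in scramble and 544 ± 53.9 in the knockdown (SD, n = 3 each), and the log2 fold change of -0.43 (standard error 0.111, 95% interval -0.67 to -0.18) had an edgeR adjusted p of 0.0450. This call was kept only without knockdown replicate 3 (edgeR adjusted p = 0.0134); without scramble replicate 1, 2 or 3 the adjusted p was 0.0660, 0.0770 or 0.209, and without knockdown replicate 1 or 2 it was 0.0988 or 0.162, with log2 fold changes from -0.51 to -0.33 over the 6 fits. Scaling by spike-ins gave -0.22 (adjusted p = 0.185), and limma voom gave -0.42 (0.0595).

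Fads6 showed the smallest difference among the desaturases. It had 2074, 2406 and 2241 counts in scramble and 2050.3, 2231 and 2185 in the knockdown, a log2 fold change of -0.06 (95% interval -0.25 to 0.14, edgeR adjusted p = 0.760) that became 0.14 under spike-in scaling. The knockdown libraries lay inside or just below the range of the scramble libraries.

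Scd2 is the stearoyl-CoA desaturase of brain and of the liver before weaning, and its counts were the lowest of the members. It had 184, 195 and 197 counts in scramble and 152, 144 and 116 in the knockdown. The groups did not overlap, and knockdown replicate 3 was the lowest at 60.4% of the scramble mean. The log2 fold change was -0.48 (standard error 0.140, 95% interval -0.79 to -0.18, edgeR adjusted p = 0.0650). It was called with library totals (adjusted p = 0.0479) and without a filter on low counts (0.0388), and not by DESeq2 (0.114). For each of the 6 members whose groups did not overlap, a two-sided exact permutation test gave p = 0.1. That is the lowest value available with 3 against 3. Any gene whose groups do not overlap gives it, so it adds nothing to the lack of overlap.

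**Figure D2:**
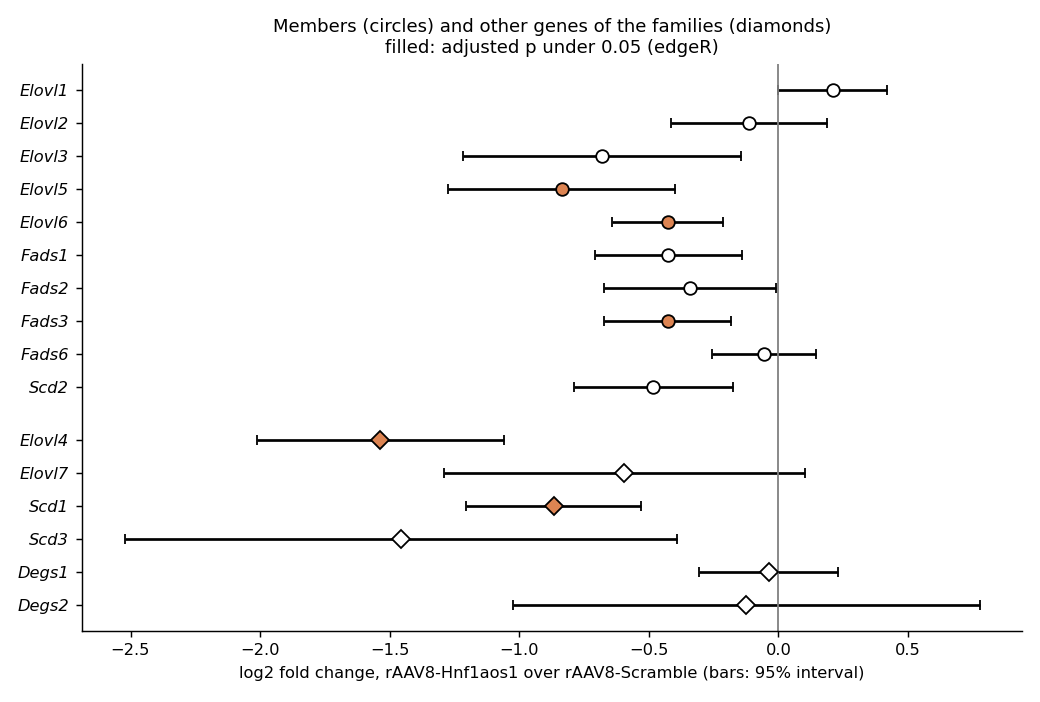
Log2 fold change (x axis, knockdown over scramble) of the 10 members (circles) and of 6 other genes of the elongase and desaturase families that were tested (diamonds), with 95% intervals from edgeR. Filled symbols passed an adjusted p of 0.05, which holds for Elovl5, Elovl6 and Fads3 among the members and for Elovl4 and Scd1 among the others.

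Levels of different genes are compared here by the deposited TPM, which is per transcript length. In scramble liver Elovl5 (493 ± 90.5 TPM), Elovl3 (493 ± 72.6) and Elovl2 (426 ± 57.4, SD, n = 3 each) were the highest members, and their ranges over the libraries overlapped. Within each scramble library Elovl3 and Elovl5 were both above Elovl2, while the order of Elovl3 and Elovl5 changed between libraries. Fads2 (313 ± 64.1) and Fads1 (285 ± 51.4) came next with overlapping ranges, Fads2 above Fads1 within each library, followed by Elovl6 (58.7 ± 3.76) and Fads6 (48.7 ± 3.59). Fads3 (20.8 ± 3.08) and Elovl1 (16.7 ± 1.18) were lower still, and Scd2 (4.59 ± 0.260) was the lowest. Scd1, for scale, was at 8081 ± 1144 TPM.

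In the knockdown the order of the elongases by mean TPM shifted. Elovl2 was first with 375 ± 63.2 TPM, then Elovl3 with 289.9 ± 76.2 and Elovl5 with 263 ± 75.9, and their ranges again overlapped. The order of the means did not hold within each library. Elovl5 was above Elovl3 in knockdown replicate 1, and Elovl3 was above Elovl2 in knockdown replicate 2. The mean of Elovl6 (41.4 ± 5.99) came below that of Fads6 (44.4 ± 0.517), within the spread and not in knockdown replicate 1, where Elovl6 was the higher. Fads3 (14.6 ± 1.38) was below Elovl1 (18.3 ± 0.423) in each knockdown library. The 5 elongases together summed to 1254, 1672 and 1536 TPM in scramble replicates 1, 2 and 3 and to 1049, 907 and 1008 in knockdown replicates 1, 2 and 3, and the 5 desaturases to 550.1, 788 and 678 and to 489, 524 and 479.9. Over all 10 members the knockdown mean was 68.8% of the scramble mean, and 63.6% or 73.9% without scramble replicate 1 or 2.

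**Figure D3:**
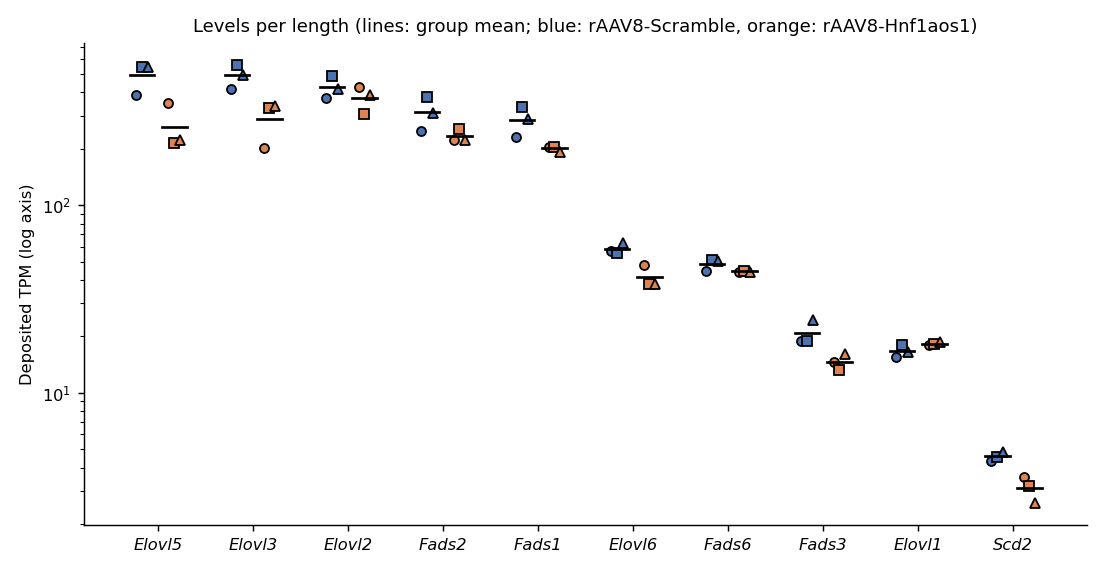
Deposited TPM (y axis, log scale) of the 10 members in each library, ordered by the scramble mean. Blue symbols are rAAV8-Scramble, orange symbols rAAV8-Hnf1aos1, circles, squares and triangles are replicates 1, 2 and 3, and lines are group means. The means span from 493 TPM for Elovl5 to 4.59 TPM for Scd2 in scramble.

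Ratios of 2 genes within a library do not depend on how libraries are scaled. They were computed for 6 pairs, chosen after the values had been seen. The TPM ratio of Elovl5 to Elovl2, which act in turn on polyunsaturated chains, was 1.04, 1.12 and 1.31 in scramble and 0.815, 0.706 and 0.571 in the knockdown, so that Elovl5 was above Elovl2 in every scramble library and below it in every knockdown library. On the log2 count scale the ratio differed by -0.74 between the groups (exact permutation p = 0.1, two-sided, again the lowest available). The log2 ratio of Fads1 to Fads2 was 0.15 ± 0.041 in scramble and 0.07 ± 0.095 in the knockdown (SD, n = 3 each), a difference of -0.08 (exact permutation p = 0.2). That of Elovl3 to Elovl2 differed by -0.60 (exact permutation p = 0.1), with knockdown replicate 1 at -2.09 and the other knockdown replicates at -0.90 and -1.21. Relative to Scd1, Elovl6 was higher by 0.44 and Scd2 by 0.38 in the knockdown (exact permutation p = 0.1 for each), and the ratio of Fads3 to Fads2 differed by -0.10 (exact permutation p = 0.6).

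Across the members, scramble replicate 2 was the highest scramble library for 7 of the 10 members and scramble replicate 3 for the other 3. Among the knockdown libraries, replicate 1 was the lowest for 5 members, replicate 2 for 3 and replicate 3 for 2. In the same libraries the summed TPM of 8 adipocyte markers was 2599.98, 4346 and 3027 in scramble, highest in replicate 2, and 2112, 2018 and 2320.2 in the knockdown. Most of that sum is Car3, which hepatocytes also express, while the defining marker Adipoq was at 9.2, 24.1 and 22.0 normalized counts in scramble and 10.5, 19.0 and 2.7 in the knockdown. Skeletal muscle markers summed to 60.1, 209 and 128 TPM in scramble and 69.1, 54.4 and 23.3 in the knockdown.

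Markers of other cells of the liver were compared between the groups as well. All 12 macrophage markers had log2 fold changes above 0 under every scaling and 5 were called higher (6 by DESeq2, 4 by limma voom; 0 of these 5 without scramble replicate 2 or 3 or knockdown replicate 2, with adjusted p up to 0.208), with sums of 319 to 384 TPM in scramble and 397 to 499.6 in the knockdown. Sinusoidal endothelial markers, of which 0 of 10 were called (0 at an unadjusted p under 0.05 by edgeR and 0 called by DESeq2), summed to 199 to 204 and 163 to 194 TPM, and the 12 stellate cell markers, with 0 called (1 at an unadjusted p under 0.05 by edgeR and 0 called by DESeq2), to 264 to 333 and 213 to 282. Cholangiocyte markers (5 of 8 tested, with 1 called lower) summed to 37.0 to 42.6 in scramble and 48.3 to 184 in the knockdown, where replicate 1 was the highest, and of lymphocyte and granulocyte markers 0 of 8 tested were called (1 at an unadjusted p under 0.05 by edgeR and 0 called by DESeq2) while Ly6g was at 0 in every library. Among the adipocyte and muscle markers Cfd and Actn3 were called lower. Without scramble replicate 2 or 3 or knockdown replicate 1, Cfd and Actn3 lost their calls, Cfd also without knockdown replicate 2, with adjusted p up to 0.173 (edgeR), and Cfd was not called by limma voom (0.0607). The part of these cells in the members' differences was not tested, and in bulk tissue fewer cells of a type and less RNA per cell cannot be told apart.

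Other genes of the pathway were described by list, with counts and medians only. The spike-in scaling turned the medians of the electron supply, acyl-CoA activation, peroxisomal, acyltransferase, SREBP-1c and LXR target and clock lists from below 0 to above 0, and library totals turned those of the ceramide and regulator lists from above 0 to below 0, so medians near 0 carry no direction. Of the family genes outside the members, 6 of 7 were tested and 2 were called, both lower. Scd1, the main desaturase of adult liver, had 253707, 330585 and 315014 counts in scramble and 196929, 148656 and 147448 in the knockdown, a log2 fold change of -0.87 (standard error 0.154, edgeR adjusted p = 0.0111). Every knockdown library was below every scramble library, and the adjusted p was 0.0793 without scramble replicate 3 and 0.0554 without knockdown replicate 2. Elovl4, an elongase of very long chains in retina, brain and skin, was present at a low level, with 91.3, 83.4 and 72.6 counts in scramble and 24.8, 29.5 and 30.8 in the knockdown. Its log2 fold change of -1.54 (standard error 0.217, edgeR adjusted p = 0.00396) was called with each library left out.

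The remaining steps of each elongation round are carried out by reductases and dehydratases. Of their 6 tested genes 0 were called by edgeR (1 at an unadjusted p under 0.05) and 0 by DESeq2, and the median log2 fold change was 0.11. The lowest adjusted p was that of Hsd17b12, the ketoacyl-CoA reductase, with 2227, 2528 and 2142 counts in scramble and 3054, 2837 and 2569.5 in the knockdown (log2 fold change 0.29, edgeR adjusted p = 0.106). The list for electron supply to desaturases held 6 genes of cytochromes b5 and their reductases. Of these 0 were called by edgeR (1 at an unadjusted p under 0.05) and 1 by DESeq2, with a median of -0.14. The lowest adjusted p was that of Cyb5b (log2 fold change -0.36, edgeR adjusted p = 0.0797). Cyb5b is a cytochrome b5 of the outer mitochondrial membrane rather than of the endoplasmic reticulum.

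Of 10 genes for malonyl-CoA, NADPH and palmitate, Me1, the malic enzyme that makes NADPH, was called lower (log2 fold change -0.63, edgeR adjusted p = 0.0149, at most 0.0742 with 1 library left out, where the call was lost without scramble replicate 2 or 3 or knockdown replicate 2), and the median was -0.24. DESeq2 called 4 of these 10, all lower. Of 11 acyl-CoA synthetases, transporters and binding proteins tested, 0 were called by edgeR (3 at an unadjusted p under 0.05) and 0 by DESeq2, with a median of -0.03. Acsbg1 had the lowest adjusted p (edgeR, 0.0917, log2 fold change -1.25). Its counts were low, at 21.5, 24.1 and 28.6 in scramble and 12.4, 14.3 and 4.5 in the knockdown. In the peroxisomal list, which shortens the longest polyunsaturated chains, 1 of 10 was called, the thiolase Acaa1b, lower by -0.94 on the log2 scale (edgeR adjusted p = 0.0336, up to 0.115 with 1 library left out and kept only without scramble replicate 1 or knockdown replicate 3, and 0.0569 without a filter on low counts), and the median was -0.16.

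Of 13 acyltransferases that place long or polyunsaturated chains in phospholipids 0 were called by edgeR (2 at an unadjusted p under 0.05) and 0 by DESeq2, and the median was -0.05, with Mboat1 at the lowest adjusted p (0.198, log2 fold change 1.06). Of 7 genes of ceramide synthesis tested, Sptlc2, a subunit of serine palmitoyltransferase, was called higher (log2 fold change 0.49, edgeR adjusted p = 0.0294), a call kept only without knockdown replicate 3 among the fits with 1 library left out (up to 0.126 in the others) and lost with library totals and by limma on log2 TPM (up to 0.152). The median of this list was 0.02.

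Among 21 transcriptional regulators, whose median was 0.01, 2 were called and both were lower. Srebf1, which encodes SREBP-1, had 3641, 4035 and 4396 counts in scramble and 2866, 2519 and 2801 in the knockdown, with no overlap (log2 fold change -0.56, standard error 0.101, edgeR adjusted p = 0.0111, or 0.0838 without scramble replicate 3 and 0.0577 without knockdown replicate 2). Mlxipl, which encodes the glucose-responsive factor ChREBP, had 8827, 8059 and 9712.5 counts in scramble and 4278, 5409.9 and 6761 in the knockdown (log2 fold change -0.69, edgeR adjusted p = 0.0303, up to 0.139 with 1 library left out and kept only without knockdown replicate 1 or 3). Of 13 other targets of SREBP-1c and LXR tested, 1 was called lower and 1 higher, and the median was -0.13. The gene called higher was Abca1, a cholesterol exporter (log2 fold change 0.54, edgeR adjusted p = 0.0154), a call lost without scramble replicate 2 or 3 or knockdown replicate 2, with adjusted p up to 0.102.

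Targets of PPAR alpha, the fatty acid sensor that also acts on desaturase genes, had a median of -0.90 over 18 genes, of which 6 were called lower and 0 higher. By adjusted p the first were Acot3 (log2 fold change -3.29, edgeR adjusted p = 0.000142), Pdk4 (-1.71, 0.000209), Acot4 (-1.66, 0.000689), Acot2 (-1.66, 0.00578) and Cyp4a31 (-0.86, 0.0303). The calls of the first 4 held with each library left out, and that of Cyp4a31 was lost in 4 of 6 such fits, without scramble replicate 1 or 3 or knockdown replicate 1 or 2, with adjusted p up to 0.123. The acyl-CoA thioesterases of the Acot family and the Cyp4a hydroxylases act on fatty acids, and Pdk4 restrains pyruvate oxidation.

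Genes that mark daily time and sex were listed because Elovl3 is known to vary with both. Of 17 clock genes tested 1 was called, Per1, lower by -1.80 on the log2 scale (edgeR adjusted p = 0.00294), and the median was -0.18. Of 12 male-biased liver genes 4 were called, all higher, Cyp7b1 (1.09, adjusted p = 0.00154), Selenbp2 (1.93, 0.00682), C6 (0.61, 0.0105) and Ces4a (0.92, 0.0421, lost in 5 of 6 fits with 1 library left out and kept only without knockdown replicate 1, up to 0.187, and lost by limma voom, with library totals, with a mean of at least 50 counts and by limma on log2 TPM, up to 0.0722), with a median of 0.48. C6 lost its call without scramble replicate 3 (0.0841). All mice were male per the study's methods. The part of sampling time or of sex-biased expression in the value of Elovl3 was not tested.

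**Figure D4:**
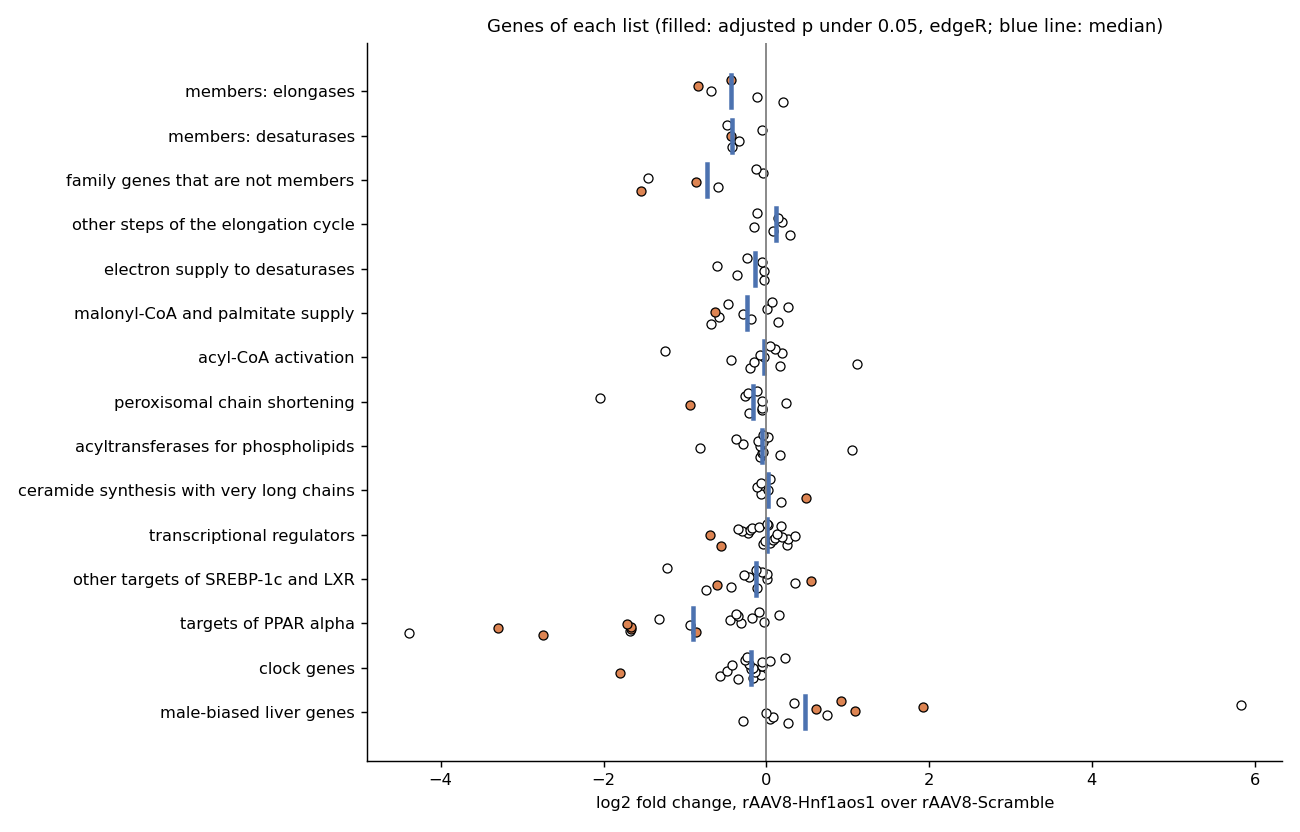
Log2 fold change (x axis, knockdown over scramble) of every tested gene in the 2 member lists and 13 other lists of the pathway and its regulators. Each point is a gene, filled where edgeR's adjusted p was under 0.05, and blue lines are medians. The member medians lie at -0.43 (elongases) and -0.42 (desaturases), the steps that complete the elongation cycle at 0.11 and the targets of PPAR alpha at -0.90.

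Likeness in pattern was the root mean square difference of log2 CPM, centred on the mean of the 6 libraries. CPM is counts relative to the TMM-scaled library size. The search covered 6627 genes with an average log2 CPM of at least 4. Sought were the genes most like Elovl6 and Fads3, the elongase and the desaturase with the lowest adjusted p. For Elovl6 these were A330023F24Rik (0.0422), 5033421B08Rik (0.0560) and Nt5c2 (0.0634), and the nearest other member was Scd2 (0.0979). For Fads3 they were Mast3 (0.0618), Mid1ip1 (0.0618) and Celsr1 (0.0619), and the nearest other member was Elovl6 (0.156). The likeness is a description over 6 libraries of 2 groups.

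**Figure D5:**
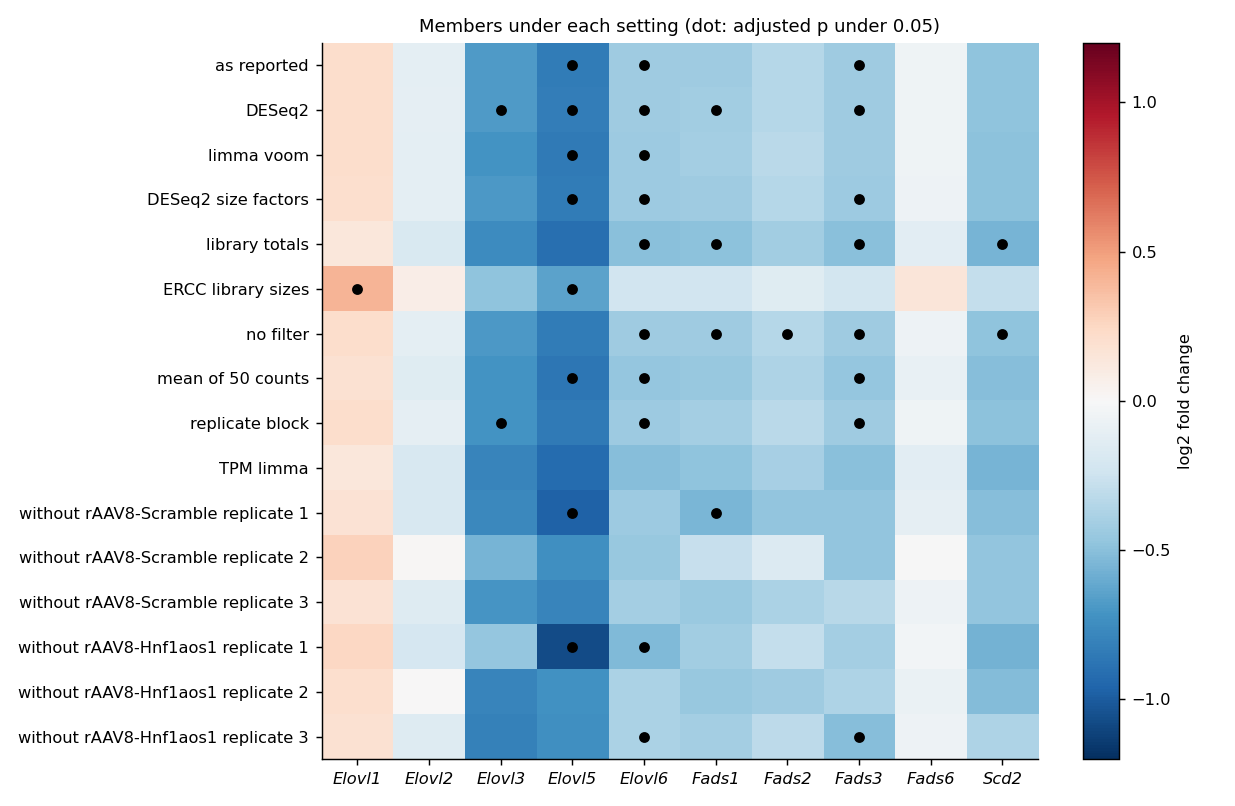
Log2 fold change (colour, blue below 0 and red above) of the 10 members (columns) in the fit reported here and under each other setting (rows), with a dot where the adjusted p was under 0.05. Elovl5, Elovl6 and Fads3 are blue in every row and lose the dot in several, while Elovl2 and Fads6 turn to values above 0 under spike-in scaling, and Elovl2 also without scramble replicate 2 or knockdown replicate 2.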

How the data were processed

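RNA-seq of mouse liver was analysed in 6 libraries, 3 per group, assigned to groups by the sample titles. The authors trimmed reads with Trimmomatic, aligned them to GRCm38 with STAR (the labels name GRCm39) and counted uniquely mapped exonic reads with featureCounts, and deposited these raw counts for 40895 rows. Libraries were made after poly(A) selection per the methods and after depletion of ribosomal RNA per the labels, and the strand setting of the counting is not given in the sources used here. The authors also deposited TPM values, used here for levels only. Their normalized counts and the table of their own DESeq2 comparison, with fold changes and p-values, were not used. Positions come from GENCODE and promoters from RefSeq, both on GRCm38, matched by symbol.

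The 92 ERCC rows entered neither library sizes nor tests, and 16327 of 40803 genes passed filterByExpr. In R 4.3.3, edgeR 4.0.16 fitted robust quasi-likelihood models (glmQLFit, glmQLFTest) with TMM scaling and the group as the only term, with Benjamini-Hochberg adjustment over all genes tested and calls at an adjusted p under 0.05. The biological coefficient of variation was 13.9%. Chi-square values between libraries of one group, 7.10 to 28.7 per gene, were above the value near 1 of pure sampling noise, so none was counted as a repeat. Permutation tests were exact and two-sided, on log2 normalized counts. Alternatives were DESeq2 1.42.0, limma voom 3.58.1, other scalings and filters, limma on log2(TPM + 0.1), the replicate number as a block and each library left out. The pipeline was tested on simulated data.

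The members and gene lists were chosen with earlier results of these data known. Named were all members, Hnf1aos1, Scd1 and Srebf1; of each other list up to 5 called genes by adjusted p, or else the gene with the lowest; and, for the elongase and the desaturase with the lowest adjusted p, the 3 genes of most similar pattern. Of the marker lists only genes that the text turns on are named. Arntl and Tf of the lists were not matched by symbol. Some called genes of the lists are counted but not reported here by name. With at least 14704746 counts per library, the spread between mice rather than counting limits the precision of the abundant members; for Scd2, the member with the fewest counts, counting error also weighs.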

Additional observations from a re-analysis of the deposited data

How the results depend on the processing

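Of 150 member values under the 15 alternatives, 114 kept their direction and their side of the threshold, and 4 changed sign, all of members that were not called: Elovl2 with spike-in library sizes (0.084; -0.20 to 0.010 with 1 library left out), without scramble replicate 2 (0.010) or knockdown replicate 2 (0.0034), and Fads6 with spike-in library sizes (0.14). The number of members called, 3 as reported, was 5 by DESeq2 (Elovl3, Elovl5, Elovl6, Fads1, Fads3), 5 without a filter on low counts (Elovl6, Fads1, Fads2, Fads3, Scd2), 0 by limma on log2 TPM and 0 to 2 with 1 library left out (0 without scramble replicate 2 or 3 or knockdown replicate 2). Over all genes, 1032 of 16327 were called as reported (505 higher, 527 lower). DESeq2 called 1237 (638 higher, 599 lower) and the fit without the filter 1902 (870 higher, 1032 lower), each from 27496 genes with counts. Spike-in library sizes gave 3394 (3030 higher, 364 lower) and limma on log2 TPM 626 (219 higher, 407 lower). Library totals gave 319 higher and 729 lower. With 1 library left out the number ran from 103 (without scramble replicate 3) to 1881 (without knockdown replicate 3). It was 391 without scramble replicate 2 and 323 without knockdown replicate 2. The cause of these differences was not tested. The members' median minus that of all genes lay between -0.47 and -0.36 throughout. The summed TPM of the members in the knockdown, 68.8% of scramble, ranged from 63.6% to 73.9% with 1 library left out. Same-numbered libraries of the 2 groups did not deviate together (r = -0.0226, 0.0231 and 0.00321), so the replicate number is not taken as a pairing; a fit with the replicate block called 878 genes and 3 members (Elovl3, Elovl6 and Fads3, with Elovl5 at an adjusted p of 0.105). Counting error weighed most on Scd2, with 128 to 179 counts per library, and least on the abundant members, for which the spread between mice set the precision.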
